A study of Mus musculus with 46 samples.

Results

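The 8 libraries described here are the unperturbed controls among the cultures of this series that were induced towards primitive endoderm (PrE). They were chosen by their labels alone, as every wild-type, control-siRNA or time-zero library of mouse EPSCs grown in PrE-induction medium, and they make up 8 of 46 libraries and 4 of 19 groups. EPSCs (extended pluripotent stem cells) are mouse stem cells held in a medium meant to let them form embryonic and extraembryonic tissue alike. The siNC group received a control siRNA and came from the experiment on Igf2bp3. The PrEdiff 0 h group is the start, at 0 h, of a course of actinomycin D, an inhibitor of transcription, and carries that drug in its treatment label. Mettl3 WT and Virma WT are the wild-type cultures of 2 gene deletion experiments. The labels give no floxed allele, Cre, clone, passage or days of induction for any of the 4 groups, and the column names of the Virma WT libraries also hold the word "input". Each group has 2 libraries, and each came from its own count table. Table and group therefore coincide, and a difference between cultures cannot be told apart from a difference between experiments.

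PrE is the lineage that forms beside the epiblast in the late blastocyst under FGF signalling. Gata6, Gata4, Sox17 and Sox7 are its transcription factors, Pdgfra its usual surface marker, and Dab2, Lrp2 and Cubn serve the uptake of nutrients by its descendants, the visceral and parietal endoderm. Parietal endoderm in particular lays down a thick basement membrane of laminin, collagen IV and perlecan. Nanog, Sox2 and Klf4 belong to the pluripotent side of that decision. An induced culture is a mixture of cells, and in such bulk samples fewer cells of a type and less RNA per cell cannot be told apart.

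Levels are counts per total reads after TMM scaling (CPM), a scaling that takes most genes to be alike between libraries. They may be compared between libraries but not between genes of different length. A test of any difference among the 4 groups (edgeR's quasi-likelihood test, Benjamini-Hochberg adjusted p under 0.05) passed for 12552 of 14038 genes, which is 89.4%. Passing that test therefore sets no gene apart, and what follows rests on sizes and on order. By the adjusted p of a single pair alone, 60.9% of genes passed for siNC minus PrEdiff 0 h, 45.3% for siNC minus Mettl3 WT (6365 genes, or 3894 without Mettl3 WT replicate 2), 69.4% for siNC minus Virma WT, 64.8% for PrEdiff 0 h minus Mettl3 WT, 71.2% for PrEdiff 0 h minus Virma WT and 61.3% for Mettl3 WT minus Virma WT. A gene is counted as higher or lower in one group than in another where the pairwise adjusted p is under 0.05 and the difference is at least 1 log2 unit. Differences are log2 values ± SE of the fit with 2 libraries a group, with the first-named group minus the second. Over all genes tested, the highest mean was in siNC for 24.3%, in PrEdiff 0 h for 28.5%, in Mettl3 WT for 19.2% and in Virma WT for 28%, and the lowest mean was in siNC for 22.5%, in PrEdiff 0 h for 27.3%, in Mettl3 WT for 14.7% and in Virma WT for 35.5%. For single genes the pair given is the highest group against the lowest, picked by level, and the test quoted is the one for any difference. Scaling to ribosomal protein genes lowered PrEdiff 0 h against the other groups across all genes, with a median for siNC minus PrEdiff 0 h of 0.80 in place of 0.00, and list medians that involve PrEdiff 0 h moved by about as much, so each is read against that of all genes. Nothing in the labels gives each replicate a culture of its own, so the p-values measure the spread between these libraries, which may be technical.

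Total counts ran from 8217488 (siNC) to 15264843 (PrEdiff 0 h). The root mean square log2 difference between the replicates of a group was 0.279 in siNC, 0.107 in PrEdiff 0 h, 0.167 in Mettl3 WT and 0.359 in Virma WT, over 9155 genes with a mean of at least 10 CPM. Between groups it ran from 0.672 for siNC against Mettl3 WT to 1.40 for PrEdiff 0 h against Virma WT. PrEdiff 0 h replicates differed by little more than sampling noise, with a chi-square of 1.22 per degree of freedom, against 3.17 to 9.82 in the other groups. The differences ran with GC content in some pairs (Spearman's rho of 0.56 over genes for siNC minus Virma WT and 0.52 for siNC minus PrEdiff 0 h), and genes are not independent replicates. Of 7 PrE markers, 7 were higher in each of the 8 libraries than in every uninduced EPSC library (EPSC and EPS 0 h), and of 6 pluripotency markers 4 were lower. The share of all genes that lay so far apart was not counted, so both counts are a description only. At or above 1 CPM in all 8 libraries were 7 of 7 PrE, 6 of 6 pluripotency, 8 of 9 feeder fibroblast and 4 of 4 parietal endoderm markers, so detection alone tells none of these cells apart. Of 4 visceral endoderm markers, Afp, Ttr and Apoa1 were under 1 CPM in every library, whereas Amn was at or above 10 CPM in all 8. The mesoderm markers T, Mixl1 and Mesp1 were under 10 CPM in every library.

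The transcription factors of PrE did not set the 4 controls in a single order. Gata6 had 189.9 and 155 CPM in siNC, 141 and 148 in PrEdiff 0 h, 220.2 and 229 in Mettl3 WT and 102 and 108 in Virma WT. Gata4 had 229.5 and 194 CPM in siNC, 174 and 171 in PrEdiff 0 h, 268 and 269 in Mettl3 WT and 126 and 129.9 in Virma WT. Both were highest in Mettl3 WT and lowest in Virma WT, by 1.10 ± 0.10 and 1.07 ± 0.09, and in both genes each group's libraries lay clear of the next and each neighbouring pair passed the test. An alternative fit with offsets for GC content and transcript length, chosen after the data were seen, left 0.62 for Gata4 but 0.05 for Gata6, a difference that no longer passed. Below, the value under these offsets is given where it changed a printed difference of the highest against the lowest group by more than 1.5 times as a fold. Sox7 showed the same ends (0.61 ± 0.10), but the steps between siNC and PrEdiff 0 h and between PrEdiff 0 h and Virma WT did not pass. Sox17 had 67 and 44.6 CPM in siNC, 39.4 and 38.2 in PrEdiff 0 h, 40.1 and 41.2 in Mettl3 WT and 38.5 and 31.8 in Virma WT. Its difference between siNC and Virma WT was 0.67 ± 0.17 and -0.04 with the offsets, its any-difference call was lost without siNC replicate 1 (edgeR adjusted p = 0.124), and PrEdiff 0 h, Mettl3 WT and Virma WT lay within 31.8 to 41.2 CPM.

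Pdgfra, the receptor that marks PrE, ran the other way. It had 207 and 261 CPM in siNC, 249.7 and 248 in PrEdiff 0 h, 432 and 442 in Mettl3 WT and 581 and 561 in Virma WT, so that Virma WT, lowest in Gata6 and Gata4, was the highest group and siNC and PrEdiff 0 h overlapped at the low end. The difference between siNC and Virma WT was -1.29 ± 0.09. Hnf4a, a nuclear receptor of visceral endoderm, was low throughout and highest in siNC, at 13.6 and 14.9 CPM there and 2.16 and 1.99 CPM in Virma WT. All 6 genes of these paragraphs passed the test of any difference, with edgeR's adjusted p from 3.85e-08 (Pdgfra) to 0.00993 (Sox17). The list of 15 PrE regulators is not confined to regulators and also holds Cubn, an endocytic receptor gene whose levels are given below. As a list, 8 of 15 PrE regulators were lower and 0 higher in PrEdiff 0 h than in Mettl3 WT, where 18% of all genes were lower and 15.9% higher by the same rule. Their median was -1.07, against 0.02 over all genes, or -1.89 against -0.79 with ribosomal protein scaling. Against Virma WT, 8 of 15 were lower in PrEdiff 0 h and 0 higher (background 21.2% and 23.9%), with a median of -1.02.

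**Figure D1:**
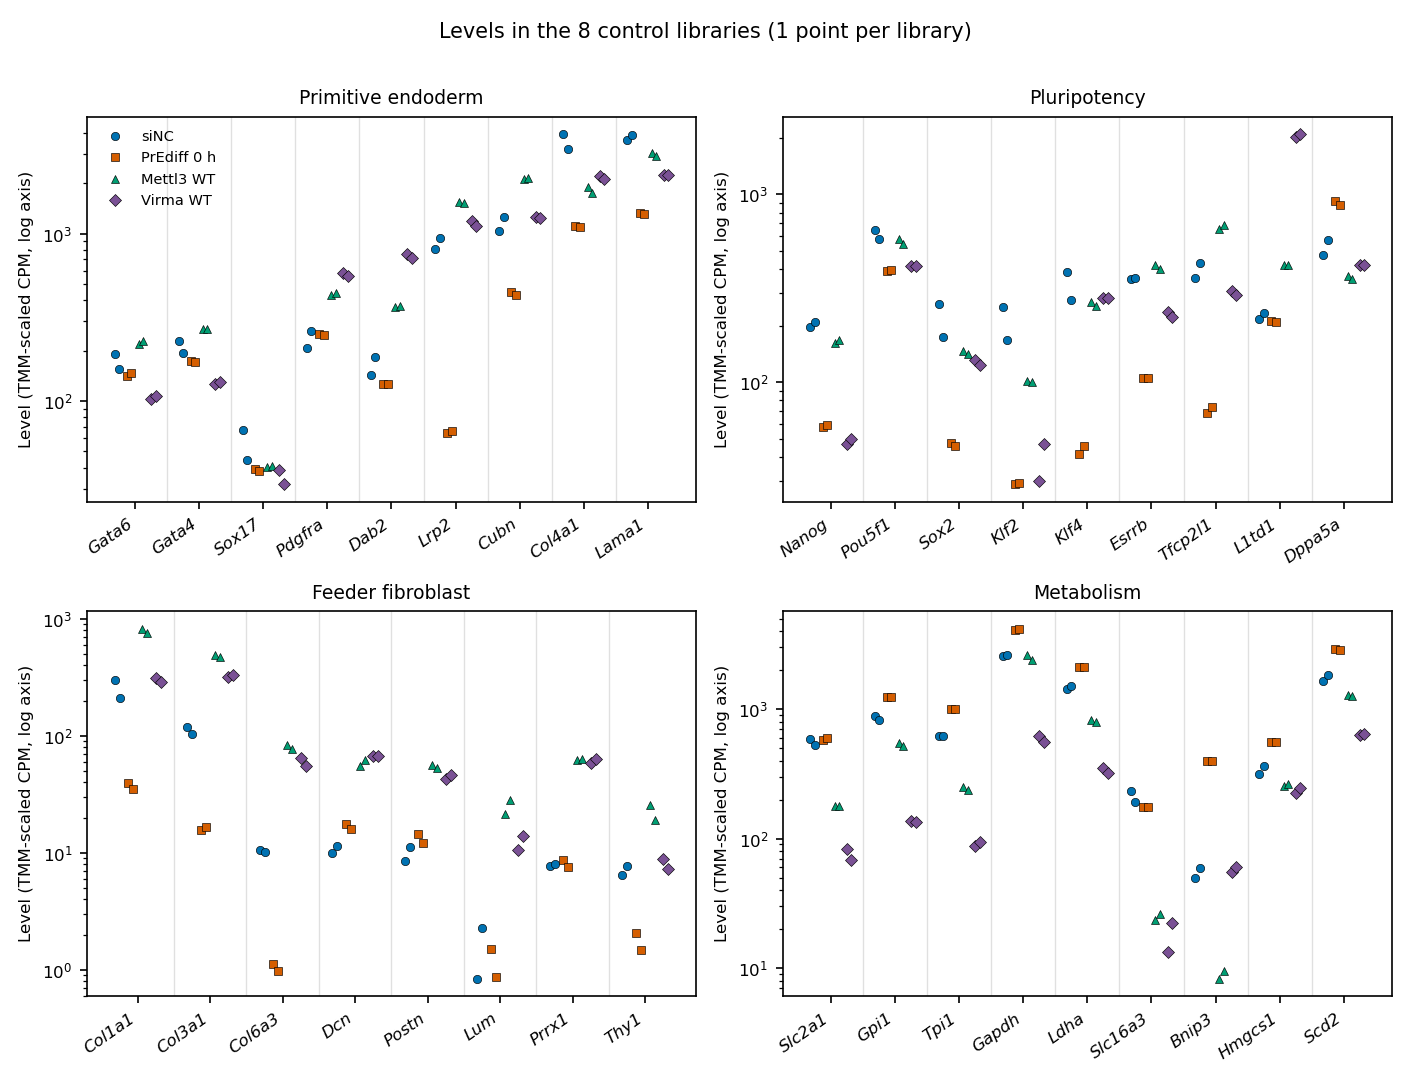
Levels (TMM-scaled CPM, log axis) of genes of PrE, pluripotency, feeder fibroblasts and metabolism in the 8 control libraries, 1 point per library and 1 colour and shape per group. Gata6 runs between 102 and 229 CPM in all groups, whereas Lrp2 lies at 64.5 and 66.3 CPM in PrEdiff 0 h and above 800 CPM in the other groups.

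Among endocytic genes, Lrp2, Cubn and Dab2 were lowest in PrEdiff 0 h. Lrp2 (megalin) and Cubn (cubilin) form the receptor for many ligands at the apical surface of visceral endoderm, with Amn as the partner of Cubn and Dab2 as the adaptor that clusters them. Lrp2 had 814 and 944 CPM in siNC, 64.5 and 66.3 in PrEdiff 0 h, 1541 and 1517 in Mettl3 WT and 1183 and 1117 in Virma WT. Cubn had 1029.7 and 1254 CPM in siNC, 445 and 431 in PrEdiff 0 h, 2119 and 2150.3 in Mettl3 WT and 1256 and 1238 in Virma WT. PrEdiff 0 h lay far below the other groups for both, by -4.55 ± 0.09 for Lrp2 and -2.28 ± 0.09 for Cubn against Mettl3 WT, and its libraries overlapped with none of the rest. Dab2 had 142 and 183 CPM in siNC, 126 and 126 in PrEdiff 0 h, 366 and 372 in Mettl3 WT and 759 and 713 in Virma WT. Here too PrEdiff 0 h was lowest, but Virma WT was highest (-2.55 ± 0.10) and siNC lay next to PrEdiff 0 h. Amn had 134 and 91.6 CPM in siNC, 12.3 and 13.7 in PrEdiff 0 h, 73.7 and 72 in Mettl3 WT and 15.4 and 18.5 in Virma WT, which put siNC highest and both PrEdiff 0 h and Virma WT low with a difference between them that did not pass. With the GC and length offsets the differences given were -1.15 for Cubn and 2.19 for siNC minus PrEdiff 0 h in Amn, against 3.11 ± 0.17 without. The adjusted p for any difference ran from 1.49e-12 (Lrp2) to 2.44e-09 (Amn) with edgeR.

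Most basement membrane genes were highest in siNC. Of 16 listed genes, 13 had their highest mean in siNC, where 24.3% of all genes had theirs, 2 in PrEdiff 0 h, 1 in Mettl3 WT and 0 in Virma WT. Col4a1, a collagen IV chain, had 3909 and 3198 CPM in siNC, 1105 and 1098 in PrEdiff 0 h, 1904 and 1742 in Mettl3 WT and 2206 and 2118 in Virma WT. Lama1, the laminin chain typical of early basement membranes, had 3616 and 3876 CPM in siNC, 1320.2 and 1314 in PrEdiff 0 h, 3028 and 2887 in Mettl3 WT and 2248 and 2244 in Virma WT. PrEdiff 0 h was lowest for both, by 1.69 ± 0.09 and 1.51 ± 0.07 against siNC. Lamc1, the shared gamma chain of these laminins, followed with 1.24 ± 0.06. Hspg2, which encodes perlecan, had 2705 and 1952 CPM in siNC, 437 and 433 in PrEdiff 0 h, 1957 and 1784 in Mettl3 WT and 686 and 704 in Virma WT, and siNC minus PrEdiff 0 h was 2.42 ± 0.12. With the GC and length offsets that of Hspg2 was -0.04 and that of Lama1 0.21, whereas Col4a1 kept 1.49. Col4a2, another collagen IV gene, did not keep its difference, with 1.73 ± 0.11 for siNC minus PrEdiff 0 h and 0.08 with the offsets. Lamb1, a laminin chain gene, went from 0.78 ± 0.07 to 0.06 in the same pair, and neither gene passed with the offsets. Nid2, a nidogen that links laminin to collagen IV, was lowest in Virma WT instead, with 478 and 429 CPM in siNC, 155 and 156 in PrEdiff 0 h, 225 and 224 in Mettl3 WT and 98 and 99.8 in Virma WT. The 2 genes highest in PrEdiff 0 h were Plod2 and P4ha1, enzymes that hydroxylate collagen. P4ha1 had 226 and 259.8 CPM in siNC, 377 and 389 in PrEdiff 0 h, 119 and 126 in Mettl3 WT and 164 and 134 in Virma WT. In siNC, 7 of 16 genes were higher and 0 lower than in PrEdiff 0 h, where 16.2% and 14% of all genes were. Their median was 0.83, against 0.00 over all genes, and 0.14 with the offsets. Adjusted p-values of the 7 genes named other than Col4a2 and Lamb1 ran, for any difference, from 1.05e-10 (Nid2) to 1.24e-08 (P4ha1) (edgeR).

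Genes of the later derivatives of PrE were mixed. Apoe, a lipid carrier of visceral endoderm, had 877 and 616 CPM in siNC, 556 and 569 in PrEdiff 0 h, 503 and 460.4 in Mettl3 WT and 1328 and 1251 in Virma WT. Aqp8, a water channel, was lowest in Virma WT, with 168 and 185 CPM in siNC, 96.9 and 96.2 in PrEdiff 0 h, 185 and 188 in Mettl3 WT and 46.4 and 39.2 in Virma WT. Ihh, a hedgehog ligand of visceral endoderm, was near 5.47 CPM in siNC and 5.53 CPM in Mettl3 WT and under 1.5 CPM in both other groups. Among parietal endoderm genes, Thbd (thrombomodulin) was highest in Mettl3 WT, with 13.7 and 14.9 CPM in siNC, 6.92 and 7.03 in PrEdiff 0 h, 72.5 and 81.9 in Mettl3 WT and 20.2 and 23.4 in Virma WT. Snai1, a repressor of epithelial genes that marks parietal endoderm, had 78.9 and 49.8 CPM in siNC, 22.8 and 24.4 in PrEdiff 0 h, 31.7 and 25.6 in Mettl3 WT and 1.68 and 1.57 in Virma WT, and the gap between siNC and Virma WT was 5.30 ± 0.29. The simple keratins were highest in PrEdiff 0 h. Krt18 had 19.4 and 19.9 CPM in siNC, 182 and 177 in PrEdiff 0 h, 10.6 and 6.65 in Mettl3 WT and 23.7 and 22.6 in Virma WT, and Krt8 and Krt19 had the same highest and lowest groups, at 2.59 ± 0.14 and 4.04 ± 0.22 for PrEdiff 0 h minus Mettl3 WT. Lefty1, an inhibitor of Nodal made by anterior visceral endoderm and epiblast, had 16.9 and 13.8 CPM in siNC, 107 and 102 in PrEdiff 0 h, 44.1 and 48.1 in Mettl3 WT and 2.04 and 4.40 in Virma WT. Dkk1, a Wnt inhibitor of anterior visceral endoderm, ran otherwise, with 24.1 and 18.1 CPM in siNC, 8.31 and 7.95 in PrEdiff 0 h, 64.8 and 67.4 in Mettl3 WT and 33.5 and 38.9 in Virma WT. Hhex, a homeobox factor of the same cells, was highest in Virma WT, with 18.4 and 15.8 CPM in siNC, 10.3 and 9.86 in PrEdiff 0 h, 20.03 and 19.8 in Mettl3 WT and 44.5 and 39.4 in Virma WT. With the GC and length offsets, Mettl3 WT minus Virma WT was -2.13 for Apoe (against -1.42 ± 0.12) and 1.30 for Ihh (against 2.27 ± 0.40), and siNC minus Virma WT was 4.18 for Snai1. These 11 genes passed the test of any difference at adjusted p from 2.76e-11 (Krt18) to 5.27e-05 (Ihh) in edgeR.

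Among the genes that a rule, given further on, named as setting PrEdiff 0 h apart were Hoxb1 and Cyp26a1, both linked to retinoic acid, a vitamin A derivative that switches on the 3' Hox genes and its own degrading enzymes. Hoxb1 had 0.526 and 0.216 CPM in siNC, 79.1 and 75.7 in PrEdiff 0 h, 0.546 and 0.924 in Mettl3 WT and 0 and 0.105 in Virma WT. Cyp26a1, which breaks retinoic acid down, had 3.16 and 4.10 CPM in siNC, 269.9 and 274 in PrEdiff 0 h, 9.35 and 8.13 in Mettl3 WT and 7.68 and 7.64 in Virma WT. For both genes the PrEdiff 0 h libraries lay far above the other 6, with -6.23 ± 0.14 for Cyp26a1 in siNC minus PrEdiff 0 h. Dhrs3, Hoxa5 and Crabp2, also linked to retinoic acid, were set beside them after their values were seen, so that their order is a description and no support. The rule named Hoxa5 and Dhrs3 not for PrEdiff 0 h but as lower in Virma WT, by at least 6.84 and 4.20 log2 units against each other group. Dhrs3, a retinal reductase induced by retinoic acid, had 4.42 and 4.20 CPM in siNC, 19.4 and 16.6 in PrEdiff 0 h, 8.50 and 8.50 in Mettl3 WT and 0.480 and 0 in Virma WT. Hoxa5, a further Hox gene, was at 18.1 and 17.7 CPM in PrEdiff 0 h and at 0 in both Virma WT libraries. Crabp2, which carries retinoic acid within the cell, had 7.57 and 7.76 CPM in siNC, 69.7 and 67.9 in PrEdiff 0 h, 7.25 and 8.96 in Mettl3 WT and 6.84 and 17.9 in Virma WT. EPSCs at 0 h in the same table as PrEdiff 0 h averaged 0.501 CPM of Cyp26a1, so its high level was not shared by all libraries of that table.

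Most naive pluripotency genes were lowest in PrEdiff 0 h. Of 16 such genes, 11 had their lowest mean there, against 27.3% of all genes, and 11 genes were lower and 1 higher than in Mettl3 WT (background 18% and 15.9%). Against Virma WT, 10 of 16 were lower in PrEdiff 0 h (background 21.2%). In siNC 13 of 16 were higher than in PrEdiff 0 h (background 16.2%), with a median of 1.72. Klf4 had 387 and 274 CPM in siNC, 41.7 and 45.7 in PrEdiff 0 h, 269 and 255 in Mettl3 WT and 280.3 and 280.0 in Virma WT. Tfcp2l1 had 359.6 and 432 CPM in siNC, 68.2 and 74 in PrEdiff 0 h, 656 and 683 in Mettl3 WT and 307 and 292 in Virma WT. These are transcription factors of the naive state, and PrEdiff 0 h fell below each of the other groups, by 2.92 ± 0.14 for Klf4 in siNC minus PrEdiff 0 h and -3.23 ± 0.10 for Tfcp2l1 in PrEdiff 0 h minus Mettl3 WT. Klf2 was also highest in siNC, with 253 and 168 CPM in siNC, 28.6 and 29 in PrEdiff 0 h, 101 and 101 in Mettl3 WT and 29.9 and 47 in Virma WT, and Esrrb and Tbx3 were highest in Mettl3 WT, at -1.96 ± 0.08 and -2.00 ± 0.09 in PrEdiff 0 h minus Mettl3 WT. With the GC and length offsets, siNC minus PrEdiff 0 h was 2.21 for Klf4 and 2.01 for Klf2, and PrEdiff 0 h minus Mettl3 WT was -2.26 for Tfcp2l1.

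Among the core factors, Pou5f1 (Oct4) had 643 and 578 CPM in siNC, 391 and 396 in PrEdiff 0 h, 576 and 543 in Mettl3 WT and 416 and 415 in Virma WT. Its difference did not pass between siNC and Mettl3 WT, the 2 higher groups, nor between PrEdiff 0 h and Virma WT, the 2 lower ones. Sox2 had 261 and 175 CPM in siNC, 47.5 and 45.6 in PrEdiff 0 h, 147 and 141 in Mettl3 WT and 132 and 123 in Virma WT. Nanog, which opposes Gata6, had 197 and 210.1 CPM in siNC, 57.9 and 59 in PrEdiff 0 h, 162 and 167 in Mettl3 WT and 46.7 and 50.03 in Virma WT, so that PrEdiff 0 h and Virma WT were both low, and the difference between siNC and Virma WT was 2.07 ± 0.09. Sall4, a zinc finger factor shared by pluripotent and PrE cells, was lowest in PrEdiff 0 h (-2.43 ± 0.10 against Mettl3 WT). Several genes of these lists went against that order. Dppa5a, an RNA-binding protein, was highest in PrEdiff 0 h, with 477 and 575 CPM in siNC, 919 and 876 in PrEdiff 0 h, 370.0 and 355 in Mettl3 WT and 418 and 421 in Virma WT. Lin28a, which blocks let-7 maturation, had 161 and 187 CPM in siNC, 311 and 309 in PrEdiff 0 h, 325 and 319.9 in Mettl3 WT and 189 and 189 in Virma WT, and L1td1, an RNA-binding protein derived from a retrotransposon, had 218 and 233 CPM in siNC, 213 and 209 in PrEdiff 0 h, 422 and 419.9 in Mettl3 WT and 2017 and 2086 in Virma WT. For L1td1, siNC minus Virma WT came to -3.19 ± 0.07 and PrEdiff 0 h minus Virma WT to -3.28 ± 0.07. Zfp42 (Rex1) was highest in Virma WT too, with 175 and 179 CPM in siNC, 74.2 and 82 in PrEdiff 0 h, 81.8 and 78.7 in Mettl3 WT and 226 and 207 in Virma WT. The 13 genes passed the test of any difference with adjusted p from 3.83e-13 (L1td1) to 3.75e-06 (Pou5f1) (edgeR).

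FGF4, made by epiblast cells, drives PrE formation through ERK, and Etv5 and Spry4 are read as its targets. Fgf4 had 88.4 and 87.1 CPM in siNC, 16.8 and 16.4 in PrEdiff 0 h, 64.6 and 63.5 in Mettl3 WT and 39.2 and 32.5 in Virma WT. Etv5 had 211 and 221 CPM in siNC, 71.4 and 69.6 in PrEdiff 0 h, 291 and 295 in Mettl3 WT and 106 and 92.8 in Virma WT. PrEdiff 0 h was lowest for both and for Spry4, and 6 of 13 tested genes of the list were lower there than in Mettl3 WT, with 0 higher (background 18% and 15.9%) and a median of -0.87. Bmp4, a ligand made by epiblast and other cells, had 37.7 and 40.4 CPM in siNC, 6.67 and 5.24 in PrEdiff 0 h, 38.9 and 37 in Mettl3 WT and 38.7 and 35.6 in Virma WT, with 3 groups close together and PrEdiff 0 h below them. Their adjusted p for any difference ran from 2.31e-10 (Etv5) to 8.11e-09 (Bmp4) with edgeR.

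**Figure D2:**
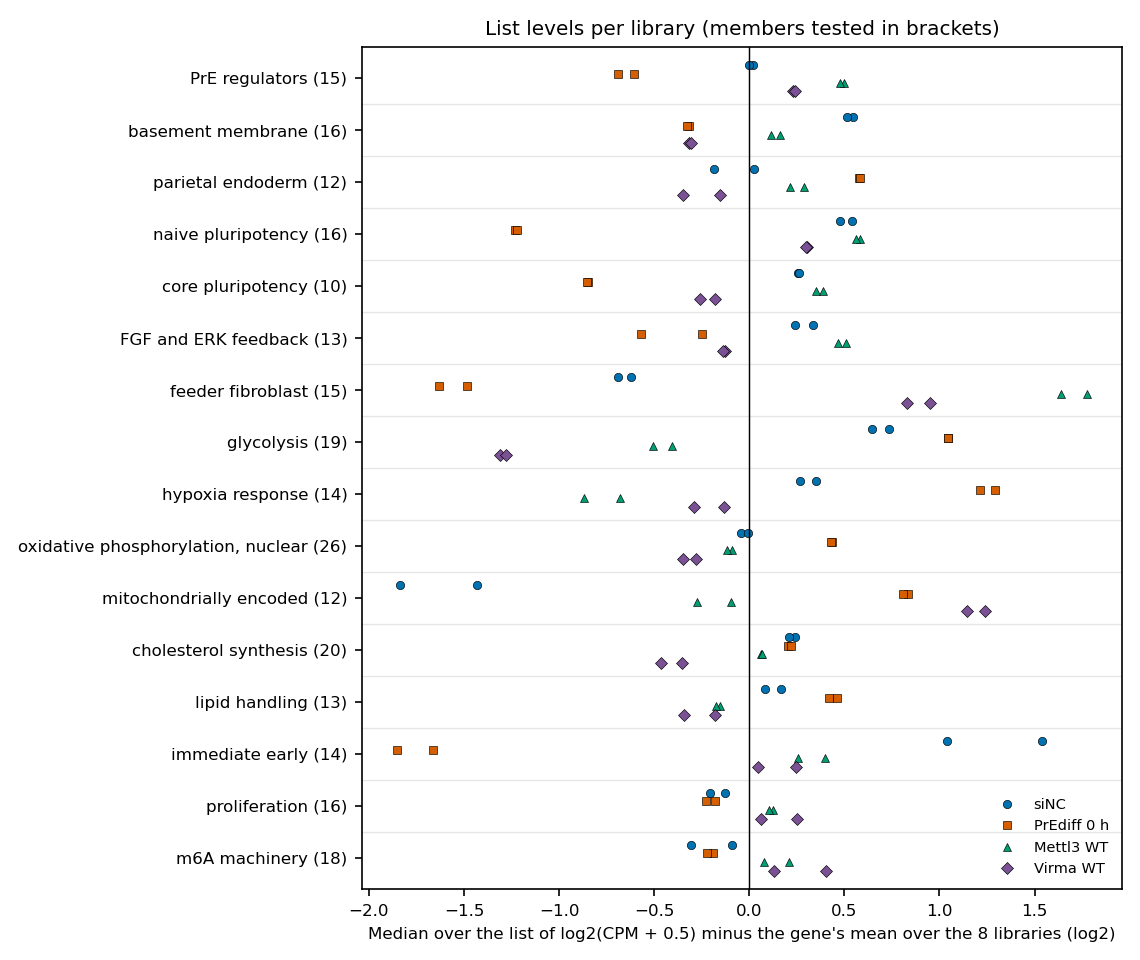
Median over each gene list of log2(CPM + 0.5) minus the gene's mean over the 8 libraries (horizontal axis, log2), 1 point per library, with the members tested in brackets. PrEdiff 0 h lies lowest for naive pluripotency, feeder and immediate early genes and, on this TMM scale, highest for glycolysis and hypoxia genes (with ribosomal protein scaling siNC lies above it for both), and Mettl3 WT lies highest for feeder genes.

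Fibroblast genes, which would mark feeder cells carried over with the culture, differed by group as well. Feeder markers held, as a share of all counts, 0.0811% and 0.0659% in siNC, 0.0205% and 0.0199% in PrEdiff 0 h, 0.272% and 0.259% in Mettl3 WT and 0.110% and 0.108% in Virma WT. Col1a1, a fibrillar collagen, had 297 and 209 CPM in siNC, 39.3 and 34.8 in PrEdiff 0 h, 819.8 and 754 in Mettl3 WT and 309 and 288 in Virma WT. Col3a1 had 118 and 103 CPM in siNC, 15.5 and 16.5 in PrEdiff 0 h, 492 and 467 in Mettl3 WT and 319 and 331 in Virma WT. Mettl3 WT was highest and PrEdiff 0 h lowest for both, by -4.41 ± 0.15 and -4.90 ± 0.10, and siNC and Virma WT overlapped for Col1a1, whose difference was -3.39 with the GC and length offsets. Col6a3 was near 1 CPM in PrEdiff 0 h, with 10.5 and 10.2 CPM in siNC, 1.13 and 0.986 in PrEdiff 0 h, 84 and 76.5 in Mettl3 WT and 65 and 55.6 in Virma WT. Some markers paired the groups in another way: Prrx1, a homeobox factor of mesenchyme, had 7.78 and 8.08 CPM in siNC, 8.75 and 7.58 in PrEdiff 0 h, 62.7 and 63.8 in Mettl3 WT and 59 and 63.3 in Virma WT, and Dcn, Postn and Lum likewise separated Mettl3 WT and Virma WT from siNC and PrEdiff 0 h. Thy1, a surface antigen of fibroblasts, had 6.42 and 7.76 CPM in siNC, 2.08 and 1.48 in PrEdiff 0 h, 25.5 and 19 in Mettl3 WT and 8.88 and 7.33 in Virma WT. Lum, a small matrix proteoglycan, lay between 0.842 and 2.26 CPM in siNC and PrEdiff 0 h, against 10.6 to 28.0 CPM in Mettl3 WT and Virma WT. In PrEdiff 0 h 14 of 15 markers were lower than in Mettl3 WT (median -3.45, background 18%) and 13 of 15 lower than in Virma WT (median -2.67, background 21.2%). In siNC 14 of 15 were lower than in Mettl3 WT, where 7.54% of all genes were, and 10 of 15 lower than in Virma WT, where 19.5% were. The median over the 15 markers of the group means was 63.3 CPM in Mettl3 WT and 92.8 in Mettl3 cKO, and 60.3 in Virma WT and 121 in Virma cKO. It was 10.4 CPM in siNC and 15.7 in siIgf2bp3, and 13.3 in PrEdiff 0 h and 15.9 in EPSCs at 0 h. The Mettl3 and Virma tables were thus higher in both of their groups than those of siNC and PrEdiff 0 h. The collagens among these markers are also made by other cells, and the part that feeder RNA plays in any other difference given here was not tested. Adjusted p for any difference ran from 1.1e-12 (Col3a1) to 2.41e-07 (Thy1) over the 8 named markers in edgeR.

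Genes of glycolysis ran from PrEdiff 0 h at the top through siNC and Mettl3 WT to Virma WT, with the first 2 changing places under ribosomal protein scaling. As a share of all counts, the 19 listed genes held 1.99% and 1.97% in siNC, 2.61% and 2.61% in PrEdiff 0 h, 1.19% and 1.13% in Mettl3 WT and 0.464% and 0.455% in Virma WT. No group overlapped with another in that share. Aldoa, an aldolase, is 1 of 19 symbols that occur more than once in the EPSC table, and whether the tables assign reads to these alike was not tested. Without it the share was 1.75% and 1.76% in siNC, 2.34% and 2.35% in PrEdiff 0 h, 1.08% and 1.03% in Mettl3 WT and 0.429% and 0.421% in Virma WT. Slc2a1, a glucose transporter, had 591 and 525 CPM in siNC, 578 and 602 in PrEdiff 0 h, 179.6 and 179.6 in Mettl3 WT and 82.4 and 67.7 in Virma WT. Tpi1, triose phosphate isomerase, had 625 and 618 CPM in siNC, 1003 and 997 in PrEdiff 0 h, 250.4 and 238 in Mettl3 WT and 88 and 94.5 in Virma WT. Ldha, which turns pyruvate into lactate, had 1423 and 1504 CPM in siNC, 2121 and 2107 in PrEdiff 0 h, 829 and 796 in Mettl3 WT and 349 and 324 in Virma WT. PrEdiff 0 h minus Virma WT was 2.98 ± 0.10, 3.45 ± 0.08 and 2.65 ± 0.07 for these 3 genes, and siNC overlapped with PrEdiff 0 h for Slc2a1 only. Gapdh, often used as a reference gene, had 2559.5 and 2606 CPM in siNC, 4112 and 4176 in PrEdiff 0 h, 2618 and 2393 in Mettl3 WT and 624 and 561 in Virma WT, and its difference between siNC and Mettl3 WT did not pass. Gpi1, glucose-6-phosphate isomerase, differed by 3.20 ± 0.08 between PrEdiff 0 h and Virma WT and Pkm, pyruvate kinase, by 1.55 ± 0.06.

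Slc16a3, which exports lactate, split the groups into pairs, with 232 and 193 CPM in siNC, 175 and 175 in PrEdiff 0 h, 23.3 and 26.2 in Mettl3 WT and 13.3 and 22.3 in Virma WT. Aldoc, an aldolase, split them in the same way, at 54.5 to 91.3 CPM in siNC and PrEdiff 0 h against 4.29 to 6.28 CPM in Mettl3 WT and Virma WT. Hk2, a hexokinase, was an exception, with 556 and 554 CPM in siNC, 252 and 254 in PrEdiff 0 h, 432 and 417 in Mettl3 WT and 479.8 and 474 in Virma WT, so that PrEdiff 0 h was lowest. Slc2a3, another glucose transporter, had its highest mean in PrEdiff 0 h (2862 CPM) but its lowest in Mettl3 WT (909 CPM). Of 19 genes, 17 were higher and 0 lower in PrEdiff 0 h than in Virma WT (background 23.9% and 21.2%; median 2.37, against 0.07 over all genes). In siNC 17 were higher than in Virma WT, where 24.7% of all genes were, and 9 higher than in Mettl3 WT, where 8.51% were. In Mettl3 WT 8 were higher and 0 lower than in Virma WT, against 19.3% and 13.5% of all genes. The median for siNC minus PrEdiff 0 h was -0.46 with TMM and 0.33 with ribosomal protein scaling. Over the 19 genes, the median of the group means was 558 CPM in siNC, 254 in Mettl3 WT and 135 in Virma WT. In the perturbed cultures of their tables it was 551 CPM (siIgf2bp3), 252 (Mettl3 cKO) and 95.8 (Virma cKO), in the same order. PrEdiff 0 h had 590 CPM, against 324 in EPSCs at 0 h of its table.

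Hypoxia response genes, targets of the HIF factors, had their highest mean in PrEdiff 0 h for 11 of 14 members and their lowest in Mettl3 WT for 8, against 28.5% and 14.7% of all genes, though the median for siNC minus PrEdiff 0 h, -0.71 with TMM, was 0.09 with ribosomal protein scaling. Bnip3, a receptor for the clearance of mitochondria, had 49.5 and 59.3 CPM in siNC, 399.9 and 397 in PrEdiff 0 h, 8.26 and 9.52 in Mettl3 WT and 54.8 and 60.1 in Virma WT. Egln1, the prolyl hydroxylase that marks HIF for decay and is itself a HIF target, had 154 and 135 CPM in siNC, 232 and 239.6 in PrEdiff 0 h, 29.7 and 32.8 in Mettl3 WT and 70.4 and 66.9 in Virma WT. The gap between PrEdiff 0 h and Mettl3 WT was 5.49 ± 0.12 for Bnip3 and 2.92 ± 0.10 for Egln1, and neither group overlapped with siNC or Virma WT. Ero1a, an oxidase of the endoplasmic reticulum, was also highest in PrEdiff 0 h (2.90 ± 0.11 against Virma WT). Vegfa, an angiogenic ligand, had 217 and 179.9 CPM in siNC, 192 and 197 in PrEdiff 0 h, 113 and 109 in Mettl3 WT and 187 and 196 in Virma WT, and the steps between siNC, PrEdiff 0 h and Virma WT did not pass. Ddit4, an inhibitor of mTORC1 induced by stress, followed the pairs of Slc16a3, with 238 and 191 CPM in siNC, 251 and 237 in PrEdiff 0 h, 20.8 and 21.6 in Mettl3 WT and 9.84 and 12.1 in Virma WT. In PrEdiff 0 h 10 of 14 genes were higher than in Mettl3 WT and 0 lower (background 15.9% and 18%), with a median of 2.16. Over glycolysis and hypoxia genes the adjusted p for any difference ran from 1.45e-12 (Bnip3) to 4.67e-06 (Vegfa) in edgeR. EPSCs at 0 h of the same table as PrEdiff 0 h averaged 29.4 CPM of Bnip3, 148 CPM of Slc2a1 and 1071 CPM of Ldha.

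Genes of the respiratory chain did not mirror glycolysis. The 13 mitochondrially encoded genes of the tables held, as a share of all counts, 0.389% and 0.538% in siNC, 2.13% and 2.04% in PrEdiff 0 h, 1.18% and 1.37% in Mettl3 WT and 2.43% and 2.38% in Virma WT, with siNC lowest. mt-Co1, a subunit of cytochrome oxidase, had 1755 and 2489.9 CPM in siNC, 12782 and 12550.0 in PrEdiff 0 h, 4288 and 4937 in Mettl3 WT and 7274 and 7148 in Virma WT. mt-Cytb, of complex III, had 423 and 592 CPM in siNC, 1619 and 1386 in PrEdiff 0 h, 2133 and 2399 in Mettl3 WT and 8550.2 and 8463 in Virma WT. The highest group was PrEdiff 0 h for mt-Co1 and Virma WT for mt-Cytb, whereas siNC was lowest for both, by -2.58 ± 0.13 and -4.07 ± 0.14, or -1.44 and -2.61 with the GC and length offsets. mt-Nd6 had 163 and 196 CPM in siNC, 23.9 and 26.5 in PrEdiff 0 h, 229.6 and 263 in Mettl3 WT and 4298 and 4530.5 in Virma WT. This gene lies on the other strand of the mitochondrial genome from most, and no source used here gives the strand setting of the counts, so its reads cannot be told apart from antisense reads. Nuclear genes of oxidative phosphorylation were higher in PrEdiff 0 h than in Mettl3 WT for 23 of 26 at adjusted p under 0.05 (background 32.0%) but for 1 by at least 1 log2 unit (background 15.9%), and the median of 0.60 turned to -0.21 with ribosomal protein scaling. That single gene was Atp5o, which is also among the repeated symbols. Without it, 22 of 25 were higher and 0 by at least 1 log2 unit. Against Virma WT, 13 of 26 were higher and 2 lower in PrEdiff 0 h by at least 1 log2 unit (background 23.9% and 21.2%). Cox6c and Cox7b, small subunits of cytochrome oxidase, went with Virma WT instead. Cox6c had 105 and 116 CPM in siNC, 215 and 206 in PrEdiff 0 h, 135 and 138 in Mettl3 WT and 554 and 563 in Virma WT, and Cox7b differed by -2.80 ± 0.09 in siNC minus Virma WT, or -1.66 with the offsets. The adjusted p for any difference over these genes ran from 9.7e-14 (mt-Nd6) to 3.43e-09 (mt-Co1) (edgeR). Ribosomal protein genes held, as a share of all counts, 5.96% and 5.66% in siNC, 9.55% and 9.50% in PrEdiff 0 h, 5.53% and 5.30% in Mettl3 WT and 4.24% and 4.16% in Virma WT, highest in PrEdiff 0 h.

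Lipid genes did not share 1 order of groups. Of 20 cholesterol synthesis genes, 9 had their lowest mean in Virma WT, 6 in siNC, 4 in PrEdiff 0 h and 1 in Mettl3 WT. Of 13 tested lipid handling genes, 5 had theirs in Mettl3 WT, 4 in Virma WT, 3 in PrEdiff 0 h and 1 in siNC. Over all genes the lowest mean was in Virma WT for 35.5%, in siNC for 22.5%, in PrEdiff 0 h for 27.3% and in Mettl3 WT for 14.7%. Hmgcs1, an early enzyme of cholesterol synthesis, had 316 and 364 CPM in siNC, 561 and 559 in PrEdiff 0 h, 253 and 266 in Mettl3 WT and 224 and 244 in Virma WT. Scd2, a desaturase, had 1658 and 1839.6 CPM in siNC, 2892 and 2887 in PrEdiff 0 h, 1281 and 1261 in Mettl3 WT and 635 and 645 in Virma WT. PrEdiff 0 h was highest and Virma WT lowest in both. Dhcr7, the last enzyme of cholesterol synthesis, was lowest in Virma WT as well (2.85 ± 0.11 for siNC minus Virma WT), and so was Srebf2, the factor that drives the pathway (2.09 ± 0.10). Fasn, fatty acid synthase, had 1667 and 1469 CPM in siNC, 423 and 425 in PrEdiff 0 h, 1571 and 1464 in Mettl3 WT and 727 and 701 in Virma WT. PrEdiff 0 h was lowest for Fasn and for Cpt1a, which admits fatty acids to mitochondria, at -2.36 ± 0.12 against Mettl3 WT, and the difference between siNC and Mettl3 WT did not pass in Fasn or Cpt1a. siNC minus PrEdiff 0 h was 1.89 ± 0.08 for Fasn, or 0.23 with the GC and length offsets, which also left 0.95 for Srebf2. Of 20 cholesterol synthesis genes, 9 were higher and 2 lower in siNC than in Virma WT (background 24.7% and 19.5%), with a median of 0.74 against 0.13 over all genes. Adjusted p-values for any difference ran from 5.23e-11 (Scd2) to 2.6e-08 (Hmgcs1) (edgeR).

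Immediate early genes, which respond within minutes to growth factors, handling or stress, had their highest mean in siNC for 10 of 14 members and their lowest in PrEdiff 0 h for 11, against 24.3% and 27.3% of all genes. Egr1 had 519 and 447 CPM in siNC, 2.20 and 2.47 in PrEdiff 0 h, 174 and 160.1 in Mettl3 WT and 160.1 and 159 in Virma WT. Fos had 122 and 99.4 CPM in siNC, 4.41 and 4.50 in PrEdiff 0 h, 25.8 and 22.4 in Mettl3 WT and 22.2 and 16.9 in Virma WT. Mettl3 WT and Virma WT lay together between the extremes in both genes, and siNC minus PrEdiff 0 h was 7.69 ± 0.14 (7.09 with the GC and length offsets) and 4.63 ± 0.18. Jun had 297 and 209 CPM in siNC, 13.8 and 13.7 in PrEdiff 0 h, 92 and 80.1 in Mettl3 WT and 252 and 250.2 in Virma WT, so Virma WT lay with siNC. Fosb had 131 and 111 CPM in siNC, against 0.126 and 0.123 CPM in PrEdiff 0 h, where it had 2 counts in each library. Arc, a neuronal immediate early gene that the rule named for siNC, had 29.2 and 25 CPM in siNC, 0.818 and 0.924 in PrEdiff 0 h, 3.59 and 2.68 in Mettl3 WT and 3.60 and 3.14 in Virma WT. Of 14 listed genes, 10 were higher and 0 lower in siNC than in PrEdiff 0 h (background 16.2% and 14%), with a median of 3.27, or 2.46 with the offsets. EPSCs at 0 h of the same table averaged 5.25 CPM of Egr1, 0.424 CPM of Fos and 5.77 CPM of Jun, and were thus also low. The adjusted p for any difference ran from 6.78e-13 (Egr1) to 4.24e-09 (Arc) over Egr1, Fos, Jun and Arc (edgeR).

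All 6 genes that the rule named as lower in PrEdiff 0 h (H4c14, H2ac15, H2bc15, H1f4, H2bc18 and H3c2) were replication-dependent histone genes. The mRNAs of this class are made in S phase and end in a conserved stem-loop rather than a poly(A) tail, whereas the replacement histones, made through the cell cycle, have ordinary tailed mRNAs. The 3' stem-loops below show that shared element for 3 of the genes discussed, all on chromosome 13, from GENCODE M21 transcripts of the GRCm38 build. Capitals mark the stem-loop and lower case its flanks, 5' to 3'.
H2ac4: aacaaaGGCTCTTTTCAGAGCCacccac
H2bc3: cccaaaGGCTCTTTTAAGAGCCacccac
H2bc14: cacaaaGGCTCTTTTCAGAGCCactaag
A stem-loop of this form was found in 8 of 15 listed histone genes that matched these transcripts by name and in 0 of 8 replacement histone genes, and no match says only that these letters are not in the annotated transcript.

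The 40 histone genes together held, as a share of all counts, 0.623% and 0.413% in siNC, 0.00339% and 0.00355% in PrEdiff 0 h, 0.619% and 0.580% in Mettl3 WT and 0.263% and 0.242% in Virma WT. That came to 52486 and 33938 counts in siNC, 506 and 542 in PrEdiff 0 h, 75310 and 58922 in Mettl3 WT and 27852 and 29693 in Virma WT. H4c4 had 573 and 337 CPM in siNC, 0.755 and 1.11 in PrEdiff 0 h, 444 and 418 in Mettl3 WT and 241 and 216 in Virma WT. H2bc14 had 68.1 and 51.4 CPM in siNC, 1.07 and 1.29 in PrEdiff 0 h, 144 and 131 in Mettl3 WT and 199 and 191 in Virma WT. H1f1, a linker histone gene, had 399.9 and 356 CPM in siNC, 1.13 and 1.54 in PrEdiff 0 h, 404 and 393 in Mettl3 WT and 89.96 and 92.7 in Virma WT. H2ac4 and H2bc3, whose stem-loops are shown above, differed by 6.92 ± 0.36 and 7.22 ± 0.21 in siNC minus PrEdiff 0 h. Each of these genes was far lower in PrEdiff 0 h than in the other groups, by 8.91 ± 0.30 for H4c4 in siNC minus PrEdiff 0 h and -7.35 ± 0.19 for H2bc14 in PrEdiff 0 h minus Virma WT. The groups other than PrEdiff 0 h did not share 1 order, since H2bc14 was highest in Virma WT, whereas siNC and Mettl3 WT overlapped at the top for H4c4 and H1f1. All 40 genes were higher in siNC than in PrEdiff 0 h (background 16.2%), with a median of 7.76 (the same with H4c14, at 0 in PrEdiff 0 h, set to the bound that 3 counts over the group allow), and 31 of 40 had a mean under 1 CPM in PrEdiff 0 h. In Mettl3 WT 25 of 40 were higher and 3 lower than in Virma WT (background 19.3% and 13.5%). Histone genes are near-identical copies, so single genes may share reads.

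Replacement histones, a list of 8 genes chosen after the values above were seen, were present in every group. H3f3b had 513 and 468 CPM in siNC, 685 and 681 in PrEdiff 0 h, 552 and 587 in Mettl3 WT and 1217 and 1203 in Virma WT. H2az1 had 423 and 302 CPM in siNC, 232 and 235 in PrEdiff 0 h, 489 and 461 in Mettl3 WT and 726 and 667 in Virma WT. H3f3b was lowest in siNC (-1.30 ± 0.07 against Virma WT, or -0.40 with the offsets), H2az1 was lowest in PrEdiff 0 h (-1.57 ± 0.12 against Virma WT) and H3f3a was highest in PrEdiff 0 h (1.31 ± 0.08 against Virma WT). The EPSCs at 0 h of the same table had the same deficit as PrEdiff 0 h, with H4c4 at 0.607 CPM, H2bc14 at 1.03 CPM and 31 of 40 histone genes under 1 CPM, whereas the EPSC libraries of another table averaged 525 CPM of H4c4 and had 0 of 40 under 1 CPM. The low histone level was therefore common to both states of that table. Library kit was not tested as a factor, since the labels name 2 kits for total RNA and do not say which library had which. The 8 named histone genes passed the test of any difference at adjusted p from 2.87e-13 (H1f1) to 3.04e-07 (H2az1) in edgeR.

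**Figure D3:**
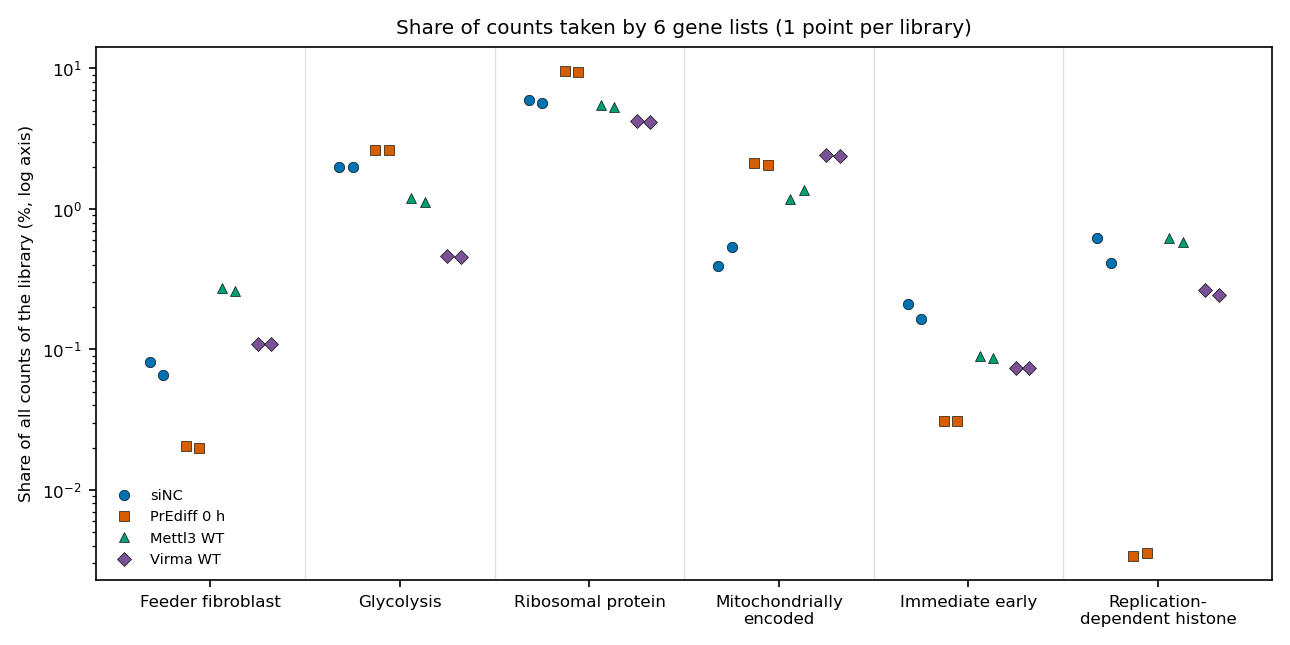
Share of all counts of each library (%, log axis) taken by 6 gene lists, 1 point per library. Glycolysis genes take 2.61% in both PrEdiff 0 h libraries and at most 0.464% in Virma WT, and histone genes take at most 0.00355% in PrEdiff 0 h and at least 0.242% in each other group.

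Proliferation genes did not set the groups apart in 1 direction. Of 16 listed genes, 2 were higher and 6 lower in PrEdiff 0 h than in Virma WT (background 23.9% and 21.2%), with a median of -0.05, or 0.39 when scaled to library totals. Mki67, a marker of cycling cells, was highest in Virma WT, with 463 and 532 CPM in siNC, 379 and 395 in PrEdiff 0 h, 577 and 582 in Mettl3 WT and 1524 and 1534 in Virma WT. Cdkn1a (p21), a p53 target that halts the cell cycle, was highest in siNC, with 119 and 103 CPM in siNC, 40.2 and 39.7 in PrEdiff 0 h, 78.6 and 68.7 in Mettl3 WT and 28.5 and 27.7 in Virma WT. Zscan4c, a marker of the 2-cell-like state, was highest in PrEdiff 0 h, with 4.42 and 6.68 CPM in siNC, 12.1 and 13.9 in PrEdiff 0 h, 1.40 and 0.739 in Mettl3 WT and 2.88 and 3.24 in Virma WT, and 10 of 10 tested genes of that state were higher there than in Mettl3 WT (background 15.9%, median 3.12). These genes were low throughout, with a list median of 0.857 and 0.739 CPM in Mettl3 WT and 4.75 and 4.07 in PrEdiff 0 h. In siNC too, 7 of 10 were higher than in Mettl3 WT (background 8.51%, median 1.51). Against Virma WT, 7 of 10 were higher in siNC (background 24.7%, median 2.23). Members of the Zscan4 family are near-identical, so reads may be shared among them.

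The genes whose perturbation gave 3 of the 4 experiments were expressed in all controls. Virma, a subunit of the m6A methyltransferase complex, had 67 and 89.6 CPM in siNC, 78.2 and 70.4 in PrEdiff 0 h, 113 and 121 in Mettl3 WT and 128 and 132 in Virma WT, and PrEdiff 0 h minus Virma WT was -0.81 ± 0.12, or 0.02 with the GC and length offsets. Mettl3, the catalytic subunit, had 22.8 and 27.3 CPM in siNC, 29.8 and 30.9 in PrEdiff 0 h, 35.3 and 32.8 in Mettl3 WT and 14 and 20.5 in Virma WT. Igf2bp3, a reader of m6A, had 85.9 and 100.5 CPM in siNC, 85.7 and 81.4 in PrEdiff 0 h, 127 and 126 in Mettl3 WT and 109.8 and 129 in Virma WT. None of these 3 genes differed by as much as 1 log2 unit between any pair of groups. Other m6A genes differed far more. Zc3h13, another subunit of the complex, had 133 and 135 CPM in siNC, 76.4 and 83.5 in PrEdiff 0 h, 116 and 113 in Mettl3 WT and 660.4 and 663 in Virma WT. Ythdc1, a nuclear reader, had 90.5 and 103 CPM in siNC, 118 and 121 in PrEdiff 0 h, 143 and 146 in Mettl3 WT and 777 and 787 in Virma WT. Virma WT lay far above the other groups in both, at -3.05 ± 0.08 for Zc3h13 in PrEdiff 0 h minus Virma WT and -3.02 ± 0.08 for Ythdc1 in siNC minus Virma WT. Virma cKO cultures of the same table averaged 752 CPM of Zc3h13 and 1227 CPM of Ythdc1, so both groups of that table were high. Adjusted p for any difference ran from 1.82e-12 (Zc3h13) to 0.000946 (Mettl3) in edgeR.

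The rule was applied to tested genes with a mean of at least 10 CPM in the highest group. By it, a group stood apart where its libraries did not overlap with the other 6 and the adjusted p was under 0.05 in the same direction against each other group. By at least 1 log2 unit in each of its contrasts, 199 genes stood apart as higher and 135 as lower in siNC, 440 and 681 in PrEdiff 0 h, 128 and 50 in Mettl3 WT, and 924 and 990 in Virma WT. Mettl3 WT had the fewest such genes and Virma WT the most. Besides immediate early genes, siNC stood out by Nos3, endothelial nitric oxide synthase, with 25.6 and 22.1 CPM in siNC, 3.71 and 3.88 in PrEdiff 0 h, 3.90 and 3.51 in Mettl3 WT and 1.32 and 1.15 in Virma WT, and by a low level of Zfp979, a zinc finger gene, with 15.3 and 18.9 CPM in siNC, 203 and 202 in PrEdiff 0 h, 83.7 and 108 in Mettl3 WT and 201 and 219 in Virma WT. Mettl3 WT stood out by Gzme, a granzyme, with 1.16 and 1.40 CPM in siNC, 0.503 and 0.740 in PrEdiff 0 h, 10.5 and 12.5 in Mettl3 WT and 1.56 and 1.57 in Virma WT, and by Mcpt8, a mast cell protease, with 2.74 and 2.05 CPM in siNC, 2.20 and 2.40 in PrEdiff 0 h, 26.3 and 25.1 in Mettl3 WT and 4.44 and 3.87 in Virma WT. Virma WT stood out by Hypk and Smim11 among others. Hypk, a chaperone of nascent chains, had 67.6 and 77.1 CPM in siNC, 102 and 108 in PrEdiff 0 h, 73.7 and 68.4 in Mettl3 WT and 1229.7 and 1297 in Virma WT, and Smim11, a small membrane protein, had 3.89 and 5.82 CPM in siNC, 13.5 and 15.7 in PrEdiff 0 h, 4.83 and 3.60 in Mettl3 WT and 158 and 159.9 in Virma WT. Virma cKO cultures averaged 1233 CPM of Hypk and 135 CPM of Smim11, so here too the whole table was high. Genes that overlap on the genome cannot be told apart without the strand setting.

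Septin2, Fam220a and Nnt were among the genes that the rule named as higher in PrEdiff 0 h. Septin2, a cytoskeletal GTPase, had 0 and 0 CPM in siNC, 489 and 481 in PrEdiff 0 h, 0.623 and 0.647 in Mettl3 WT and 0.600 and 0.314 in Virma WT. Fam220a had 0 and 0 CPM in siNC, 35.1 and 32.5 in PrEdiff 0 h, 0 and 0 in Mettl3 WT and 0 and 0 in Virma WT. All 3 symbols are among 19 that occur more than once in the EPSC table, and 10 of those 19 were higher in both PrEdiff 0 h libraries than in the other 6. The share of all genes that lay so was not counted. EPSCs at 0 h of the same table had 311 CPM of Septin2. Whether the tables assign reads to such symbols alike was not tested, and these values are not read as expression.

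Set beside the rest of the series on the same scale, the spread among the 4 controls was small for some PrE genes and large for others. Gata6 averaged 173 CPM in siNC, 144 CPM in PrEdiff 0 h, 225 CPM in Mettl3 WT and 105 CPM in Virma WT, against 6.59 CPM in EPSC and 4.99 CPM in EPS 0 h. All controls thus lay far above uninduced cells. CD140+ cells sorted from induced cultures (PrE-E) averaged 199.8 CPM of Gata6, near the controls, but 4573 CPM of Dab2 and 15839.6 CPM of Lama1, above each control group. Virma WT, at 105 CPM of Gata6, lay below the 165 CPM of Mettl3 cKO cultures and above the 90.6 CPM of siIgf2bp3 cultures. A control level thus fell below that of a perturbed culture from another table. Nanog averaged 285 CPM in EPSC and 379 CPM in EPS 0 h. Virma WT at 48.3 CPM and PrEdiff 0 h at 58.4 CPM both lay nearer to the 27.3 CPM of the CD140- cells (EPI-E). These values were not tested, since table and group coincide there as well.

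**Figure D4:**
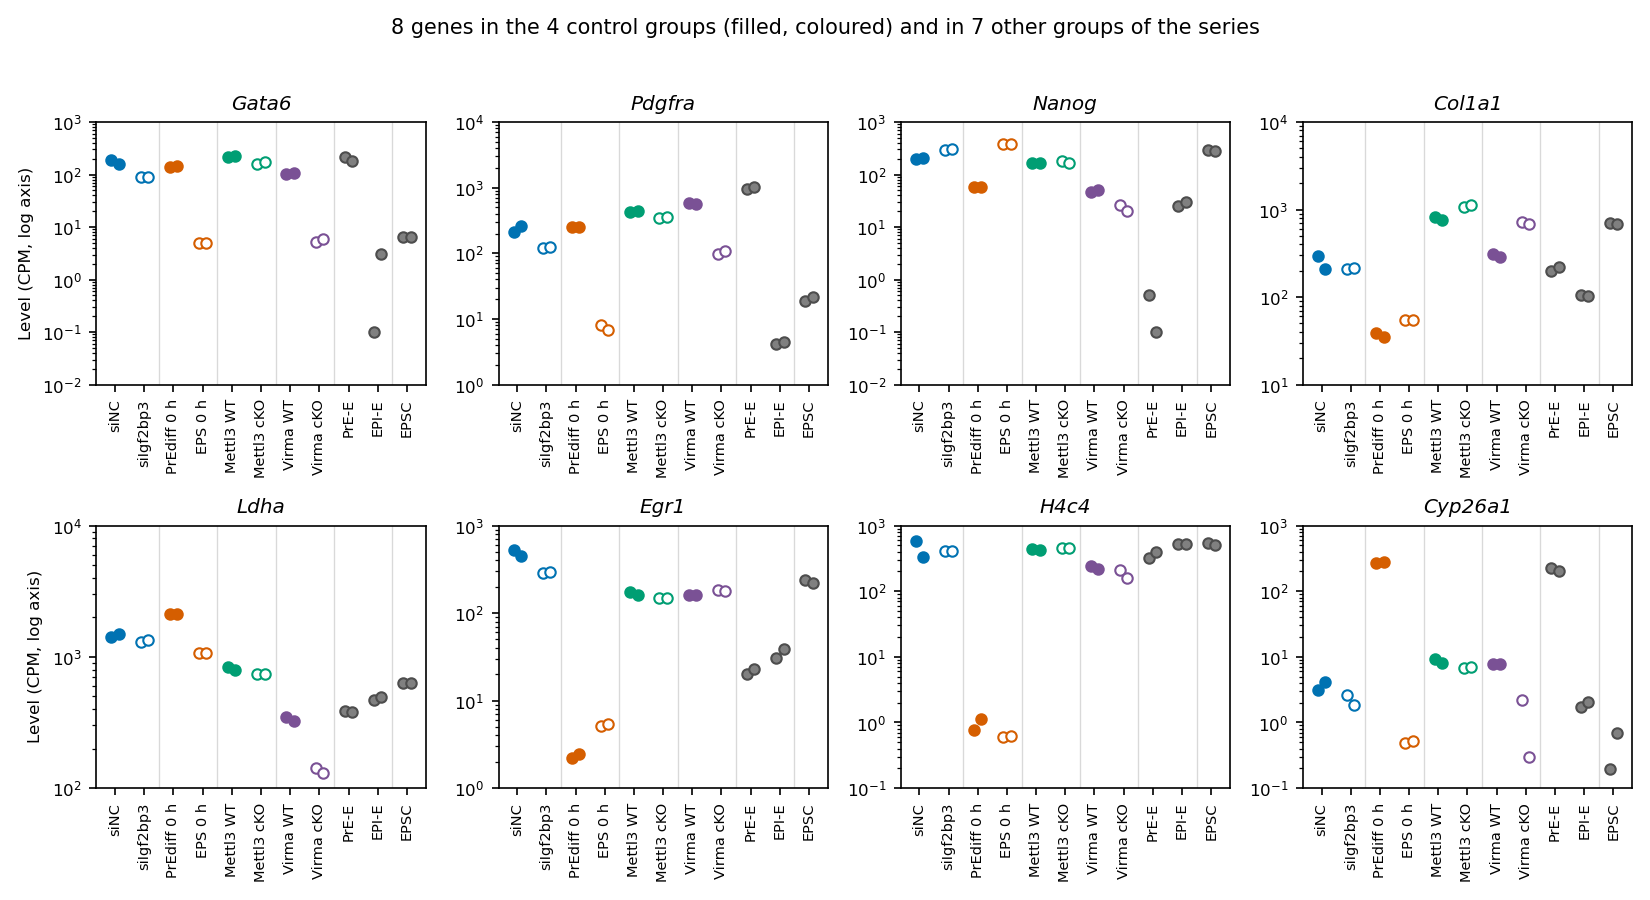
Levels (CPM, log axis) of 8 genes, 1 point per library, in the 4 control groups (filled, coloured), in the other group of each control's table (open, same colour) and in sorted cells and EPSC (grey), with values under 0.1 drawn at 0.1. H4c4 and Egr1 are low in both groups of the PrEdiff 0 h table, whereas Cyp26a1 is high in PrEdiff 0 h and in the sorted PrE-E cells.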

How the data were processed

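RNA-seq libraries were made from TRIzol-extracted total RNA of EPSC-derived cultures, per the labels' protocols. The deposited tables hold raw read counts per gene symbol; the submitters' processing notes name FastQC 0.12.1, Trim Galore, STAR 2.7.11b, Subread, DESeq2 and the mm39 build, and the annotation and strand setting are not given in the sources used here. Of 7 tables, 6 were used, with 21812 shared symbols in each (for the 19 symbols repeated in the EPSC table the first row entered the scaling and no EPSC level is given). Total counts per library ran from 8217488 to 15264843.

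The 8 control libraries were fitted together with edgeR 4.0.16 (R 4.3.3; TMM scaling, filterByExpr with a minimum count of 10, robust quasi-likelihood test), with 1 term per group, a test of any difference and 6 pairwise contrasts over 14038 genes, Benjamini-Hochberg adjusted at 0.05. SEs are the absolute log2 difference divided by the square root of F. On simulated counts for siNC minus Virma WT (13569 genes), 20 of 66 changes of 0.5 log2 units, 56 of 67 of 1 and 63 of 67 of 2 were recovered, with 4 false calls. Simulated libraries shared a pooled profile and a single spread, and few genes were changed. The data differ in each of these, so the simulation does not give the rate of false calls in them.

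The members and gene lists were chosen with earlier results of these data known. Genes named for a group were, by rule, up to 6 higher and 6 lower genes that passed in the same direction against each other group, with no overlap between libraries, at least 10 CPM in the highest group and no clone-like symbol, ranked by the smallest of the 3 differences. From each list up to 6 members were taken by the p for any difference, beside a fixed set of lineage and metabolic genes; a few further list members and companions were named after their values were seen. Values of a few list members are not reported here. GC content and length came from GENCODE M21 transcripts (GRCm38) by symbol. DESeq2 1.42.0, other scalings and filters, a replicate block and leaving out libraries were run as alternatives. Replicate agreement was checked by chi-square tests.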

Additional observations from a re-analysis of the deposited data

How the results depend on the processing

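Of the values recomputed under other settings, 126 counts of called genes stayed within 1.5 times and 7 did not. Of list medians, 265 moved by less than the spread between replicates, 153 by more and 14 changed sign, and of shares of counts 15 moved by less and 33 by more. Asking for at least 1 log2 unit left 4250 genes for siNC minus PrEdiff 0 h, 2254 for siNC minus Mettl3 WT, 6208 for siNC minus Virma WT, 4763 for PrEdiff 0 h minus Mettl3 WT, 6338 for PrEdiff 0 h minus Virma WT and 4602 for Mettl3 WT minus Virma WT. Leaving out 1 library at a time gave 11444 to 13507 genes for any difference, 6560 to 9763 for siNC minus PrEdiff 0 h, 3894 to 7718 for siNC minus Mettl3 WT (lowest without Mettl3 WT replicate 2), 8837 to 10192 for siNC minus Virma WT, 7002 to 10254 for PrEdiff 0 h minus Mettl3 WT, 8349 to 10342 for PrEdiff 0 h minus Virma WT and 6871 to 9134 for Mettl3 WT minus Virma WT; a group left with 1 library was taken to vary like the others. DESeq2 called 11993 genes for any difference, and 10086 of 13585 genes passed in edgeR without the PrEdiff 0 h group. With the replicate number as a block, 12444 genes passed for any difference. Deviations of same-numbered libraries correlated at 0.28 between siNC and Mettl3 WT and at -0.02 to 0.00 in the other pairs. Whether the numbers pair the samples of siNC and Mettl3 WT cannot be told from these values.

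Scaling to library totals moved the median of all genes for siNC minus Virma WT to 0.65 from 0.13, for PrEdiff 0 h minus Virma WT to 0.51 from 0.07 and for Mettl3 WT minus Virma WT to 0.61 from 0.17. The genes called higher and lower were then 7444 and 2848 (5246 and 4503 with TMM), 6967 and 3350 (5168 and 4823) and 7158 and 2281 (4912 and 3697). Ribosomal protein scaling moved it for siNC minus PrEdiff 0 h to 0.80 from 0.00, for PrEdiff 0 h minus Mettl3 WT to -0.79 from 0.02 and for PrEdiff 0 h minus Virma WT to -0.66 from 0.07, with 8418 and 1195 (4265 and 4280), 1303 and 8605 (4491 and 4599) and 2614 and 7500 called.

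Differences that changed sign with the GC and length offsets were Sox17 for siNC minus Virma WT (-0.039), Hspg2 for siNC minus PrEdiff 0 h (-0.045) and Virma for PrEdiff 0 h minus Virma WT (0.018), and the medians of basement membrane genes for PrEdiff 0 h minus Virma WT (-0.075) and Mettl3 WT minus Virma WT (-0.039), naive pluripotency genes for siNC minus Virma WT (-0.026) and immediate early genes for Mettl3 WT minus Virma WT (-0.016). With library totals, medians turned for PrE regulators in siNC minus Virma WT (0.40) and for naive (0.020) and core pluripotency genes (0.0063) in siNC minus Mettl3 WT. With ribosomal protein scaling they turned for siNC minus PrEdiff 0 h in glycolysis (0.33), hypoxia (0.091) and oxidative phosphorylation (0.28), for PrEdiff 0 h minus Mettl3 WT in oxidative phosphorylation (-0.21) and cholesterol synthesis (-0.66), and for PrEdiff 0 h minus Virma WT in basement membrane (-0.62) and cholesterol synthesis (-0.19). The cause of these changes was not tested. At these depths 1 CPM is about 8 to 15 reads, and genes under it carry wide counting errors.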

Other observations

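Genes of formative epiblast and of trophoblast differed by gene, some of them widely. Dnmt3a, a de novo DNA methyltransferase, had 177 and 169.9 CPM in siNC, 295 and 305 in PrEdiff 0 h, 563 and 520.0 in Mettl3 WT and 421 and 431 in Virma WT, lowest in siNC. Car4, a carbonic anhydrase, had 12.2 and 14 CPM in siNC, 85.8 and 91.6 in PrEdiff 0 h, 8.96 and 9.33 in Mettl3 WT and 13.6 and 15.4 in Virma WT, and so stood apart in PrEdiff 0 h, whereas Otx2, a homeobox factor of formative cells, had 3.89 and 4.53 CPM in siNC, 0.252 and 0.123 in PrEdiff 0 h, 0.546 and 0.462 in Mettl3 WT and 1.68 and 1.15 in Virma WT. Of 11 tested formative and primed genes, 1 was higher and 1 lower in PrEdiff 0 h than in Mettl3 WT, shares not above those of all genes (15.9% and 18%). Of 10 tested trophoblast genes, 5 were higher and 0 lower in PrEdiff 0 h than in Mettl3 WT, with a median of 1.20 against 0.02 over all genes. Among them, Krt7, a keratin, had 1.05 and 1.62 CPM in siNC, 12.8 and 14.1 in PrEdiff 0 h, 0.779 and 0.647 in Mettl3 WT and 3.60 and 1.99 in Virma WT, which follows Krt8, Krt18 and Krt19. Rhox6 and Rhox9, homeobox genes of placenta and germ cells, were highest in Virma WT, with 6.52 and 6.36 CPM in siNC, 13 and 12.5 in PrEdiff 0 h, 6.00 and 4.43 in Mettl3 WT and 45.8 and 43.3 in Virma WT for Rhox6. Of 5 trophoblast markers, Cdx2, Gata3, Elf5 and Hand1 were under 10 CPM in all 8 libraries. Tfap2c, the remaining marker, was at or above 10 CPM in all 8 and reached 76.2 CPM. Of 15 p53 target genes, 6 were higher and 1 lower in siNC than in Virma WT, with a median of 0.57 against 0.13 over all genes, of which 24.7% were higher and 19.5% lower.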
